A study of Mus musculus with 16 samples.

Results

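The genes described here encode 49 assembly factors of the large (60S) ribosomal subunit, out of 14552 genes in the deposited expression table of a DDX10 depletion time course in mouse embryonic stem cells. They were taken by gene name from a list of pre-60S factors that leaves out the DEAD-box RNA helicases, and all 49 were found in the table. All 49 had a mean of at least 10 normalized counts over the libraries and entered the tests, which covered 13355 genes. DDX10 itself is a DEAD-box helicase, and the study's title links it to 18S rRNA of the small (40S) subunit. The 49 genes were listed for the other subunit, which does not mean that each acts on that subunit alone.

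Every library came from E14 mouse embryonic stem cells of the genotype Ddx10-AID, Tir1, in which DDX10 carries an auxin-inducible degron and Tir1 is the plant receptor that marks the degron for destruction when auxin is present. Whether the line is 1 clone is not given in the sources used here, and cells without the degron were not analysed here, so auxin and loss of DDX10 cannot be told apart. The cells grew with serum, 1000 U/mL leukemia inhibitory factor, 3 µM CHIR99021 and 1 µM PD0325901. The auxin was indole-3-acetic acid at 500 µM. The 8 groups of 2 libraries were untreated cells, cells after 2, 4, 6 and 12 h of auxin, cells after 1 and 2 days of auxin, and a withdrawal group that had 2 days of auxin and then 2 days in medium free of it. The libraries were made from purified mRNA of bulk cells, so fewer cells of a type and less RNA per cell cannot be told apart.

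Large-subunit assembly begins in the nucleolus, where factors fold the 28S and 5.8S rRNAs together with ribosomal proteins as the precursor RNA is made. The PeBoW proteins, GTPases and AAA ATPases then remodel the particle, the rixosome helps to remove the second internal transcribed spacer (ITS2), and export factors carry the particle to the cytoplasm, where the last factors leave. Genes for these proteins are highly expressed in growing cells, and MYC is a well-known activator of many of them. In embryonic stem cells several, such as nucleostemin (Gnl3), are known for their high expression.

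The 16 libraries held an estimated 13.6 M to 17.5 M counted reads each. The 2 untreated libraries differed more from each other than those of any other group, with an SD of the log2 difference over genes of 0.62, followed by the 1 day pair at 0.53 and the other pairs at 0.37 to 0.41. Libraries of 2 to 12 h stood apart from the rest over all genes, in a way that moved with transcript length, and time and library set cannot be told apart for them, so these times were set both against untreated cells and against 2 h. Ddx10 mRNA, a readout of the transcript and not of the degraded protein, had 1433 and 1509 untreated, 1847 and 2046 by 2 h, 1886 and 1855 by 4 h, 1676 and 1675 by 6 h and 1312 and 1305 by 12 h, and later 1159.7 and 889 after 1 day, 997 and 1041 after 2 days and 1695 and 1498 following withdrawal. Against untreated cells its log2 value rose at first (2 h 0.40 ± 0.11, limma adjusted p = 0.0248, 4 h 0.35 ± 0.11, limma adjusted p = 0.0389) and was lower by 2 days (-0.53 ± 0.11, limma adjusted p = 0.00131). All 10 embryonic stem cell markers were in the table, with a summed level between 86006 and 125975 normalized counts. The 3 fibroblast markers present of 8 summed to 124 to 238. Single stem cell markers moved both ways at 2 days, from -1.13 (Utf1) to 1.09 (Klf4). By limma at an adjusted p under 0.05, 4 of the 10 were higher and 3 lower (background 21% higher and 23.8% lower). Summed primitive endoderm markers (6 of 7 present) were 80.2 and 81.1 in untreated cells and 152 and 166 at 2 days, and trophoblast markers (5 of 6 present) were 1204 and 1301 and then 2146 and 2007. The trophoblast sum followed Tfap2c (1.38 ± 0.19, limma adjusted p = 6.97e-05 at 2 days), while Eomes fell (-0.63 ± 0.22, limma adjusted p = 0.0293), 3 of the 4 tested markers had negative values and their median was -0.42. Of the 4 neural markers tested, 2 were higher and 1 lower at 2 days by the same threshold, from -0.77 (Tubb3) to 2.95 (Neurod1). The part of these markers in the results below was not tested.

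At 2 days of auxin most of the assembly factor genes had lower mRNA levels. In limma's test with Benjamini-Hochberg adjustment over all genes tested, with an adjusted p under 0.05 as the threshold, 36 of the 49 genes (73.5%) fell and 1 rose, against 23.8% of all genes lower and 21% higher. The median log2 change of the 49 genes was -0.37, beside -0.01 over all genes, and changes are differences of log2(normalized count + 1) throughout. Here and below, the shares over all genes are not matched for expression level. The median SE over all genes was 0.16, and the SEs given below for single members are smaller. Members could therefore pass the threshold at smaller changes than many other genes. With a minimum mean of 50 the median change over all genes at 2 days was -0.04. The largest fall was that of nucleolin (Ncl, -0.97) and the only rise that of Mak16 (0.27). The 12 genes that did not pass were Ebna1bp2, Brix1, Rpf1, Ppan, Noc2l, Surf6, Urb1, Mybbp1a, Rrs1, Mdn1, Nol9 and Nmd3. Leaving out any 1 of the 4 compared libraries kept most of the calls at 2 days, but a minority ended with at least 1 library left out.

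The same direction was seen after 1 day of auxin, with 26 genes lower and 1 higher (background 17.7% lower, 15.9% higher and 33.6% in all) and a median of -0.26. The count at 1 day depended on the pooled spread, since it dropped to 4 when the 1 day and untreated libraries were fitted alone. Between 1 and 2 days 3 genes fell further, Rpf2, Wdr74 and Nsa2 (background 4.07% lower, 1.57% higher and 5.65% in all), but none of these calls held with each library left out in turn.

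After auxin was removed most of the genes were higher again. Withdrawal libraries set against 2 days had 35 genes higher and 1 lower (background 22.2% higher and 19.1% lower), with a median log2 change of 0.32. Most of these calls were kept with any 1 compared library left out, but a minority ended with at least 1 left out. Against untreated cells limma called 0 of the 49 genes after withdrawal (background 1.72% higher, 1.07% lower and 2.79% in all), 4 had an unadjusted p under 0.05, and the median was -0.07. A missed threshold does not show that the levels were equal. The median SE of a log2 change was 0.16 over all genes, and smaller for the single members whose SE is given below. In the plot of all changes by comparison the genes sit close to 0 after withdrawal against untreated cells, 37 below it and 12 above. At 12 h, 1 day and 2 days they sit mostly below 0.

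**Figure D1:**
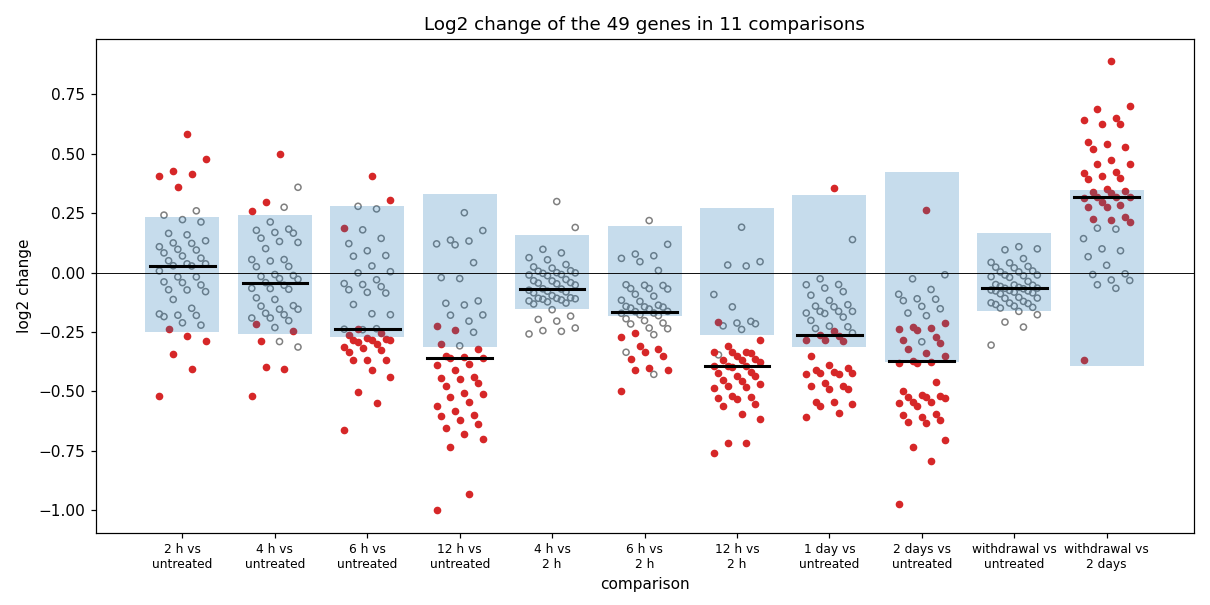
Log2 change of each of the 49 assembly factor genes (points, red where limma's adjusted p is under 0.05) in 11 comparisons, with their median as a black bar and the middle 50% of all genes as a blue box. The medians fall to -0.37 at 2 days against untreated cells and stand at 0.32 for withdrawal against 2 days.

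Within the 2 to 12 h libraries most genes were lower at 12 h than at 2 h. At 4 h against 2 h limma called 0 of the 49 genes (background 1.77% higher, 0.681% lower and 2.45% in all), with 5 at an unadjusted p under 0.05. At 6 h 11 genes were lower and 0 higher than at 2 h (background 3.35% lower, 4.45% higher and 7.8% in all), a count that dropped to between 0 and 3 with any 1 of the 4 compared libraries left out and rose to 20 when the 2 to 12 h libraries were fitted alone, a fit that called 18.7% of all genes in either direction and 10% lower. At 12 h 37 of 49 genes (75.5%) were lower than at 2 h and 0 were higher, against 13.7% of all genes lower and 10.9% higher, and the median log2 change was -0.39. Most calls in this comparison were kept with any 1 library left out, but a minority ended with at least 1 left out.

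Against untreated cells the early times gave a mixed picture. At 2 h 6 genes were higher and 6 lower (background 6.75% and 8.45%, 15.2% in all), at 4 h 3 were higher and 6 lower (background 8.86% and 10.2%), at 6 h 3 were higher and 22 lower (background 10.9% and 13.4%), and at 12 h 0 were higher and 32 lower (background 14.8% and 18.3%, 33.1% in all). The medians were 0.03, -0.04, -0.24 and -0.36. None of the 12 calls at 2 h held with each library left out in turn, whereas most of the 32 calls at 12 h did. Over the 6 auxin times as a set, limma's F-test called 45 of 49 genes, beside 65.2% of all genes, and the 4 not called were Brix1, Rbm28, Surf6 and Urb1.

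**Figure D2:**
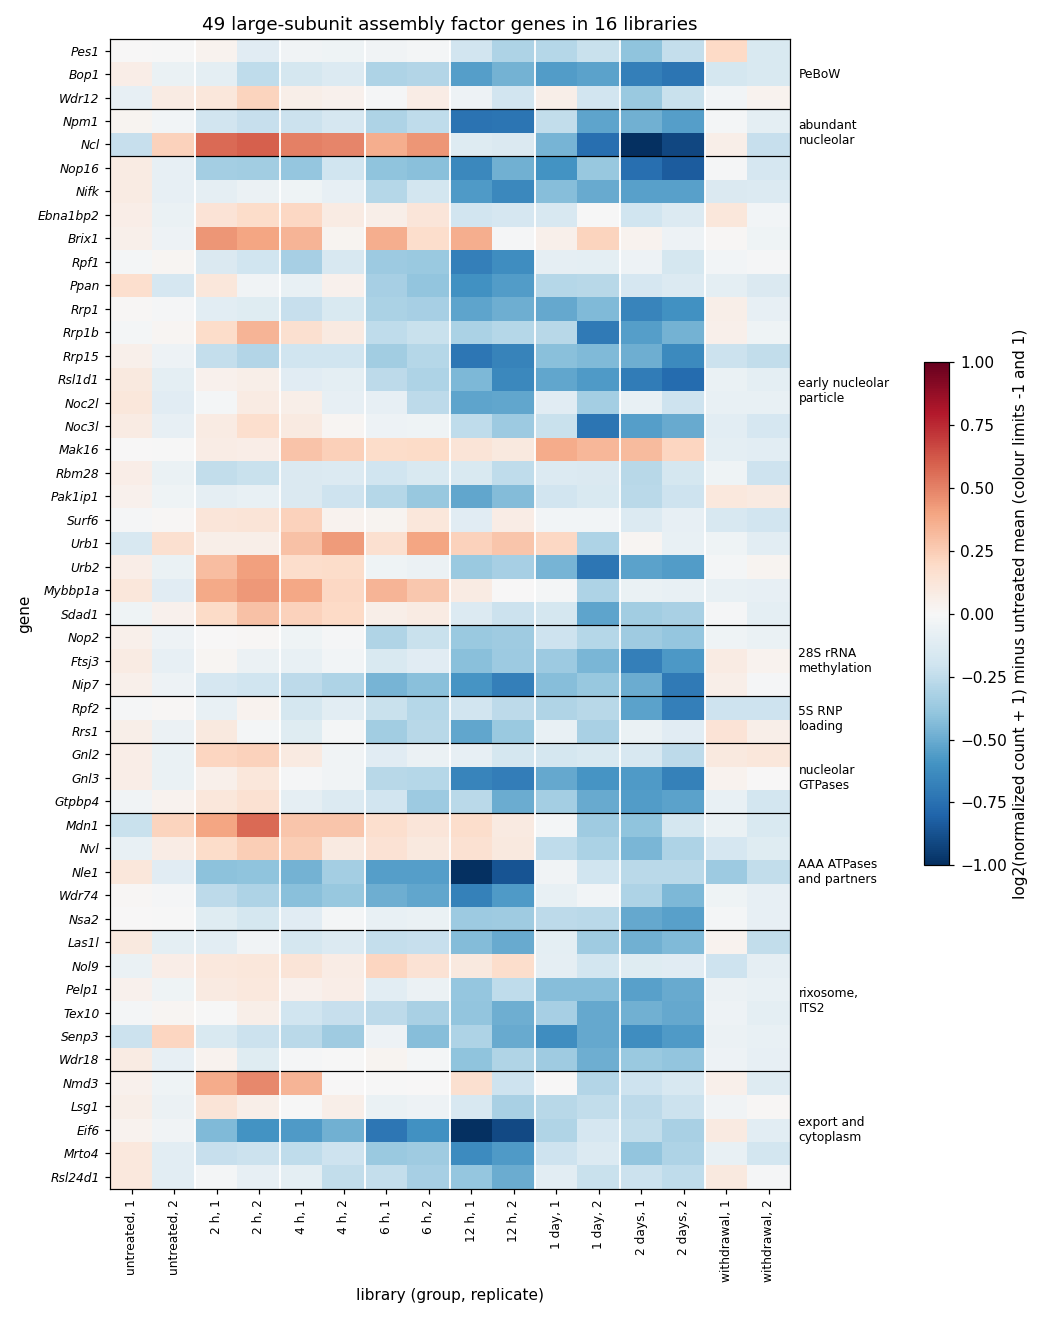
Log2 normalized count of each of the 49 genes (rows, grouped by role) relative to its untreated mean in each of the 16 libraries (columns), with blue for lower and red for higher. Most rows are blue at 12 h, 1 day and 2 days and near white after withdrawal, and Ncl is red from 2 to 6 h.

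The early changes moved with transcript length. Across the 49 genes, whose longest annotated coding transcripts had a median length of 2700.0 bases and ran from 1204 to 17970.0, Spearman's rho between length and the log2 change against untreated cells was 0.71, 0.69, 0.71 and 0.71 for the 2, 4, 6 and 12 h groups. Over all genes with a length it was 0.33 to 0.35 at these times. The points share their libraries, so these are descriptions with no test. At 6 h 19 of the 24 shorter genes were lower, compared with 3 of the 25 longer ones. The same coefficient was -0.04 at 1 day, 0.06 at 2 days and 0.14 at 12 h against 2 h. At 2 days 19 of the 24 shorter and 17 of the 25 longer genes were lower, and at 12 h against 2 h the counts were 19 and 18. With a trend on length and GC content removed the median at 6 h against untreated cells was -0.15. The part of length or library set in the early values against untreated cells was not tested.

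**Figure D3:**
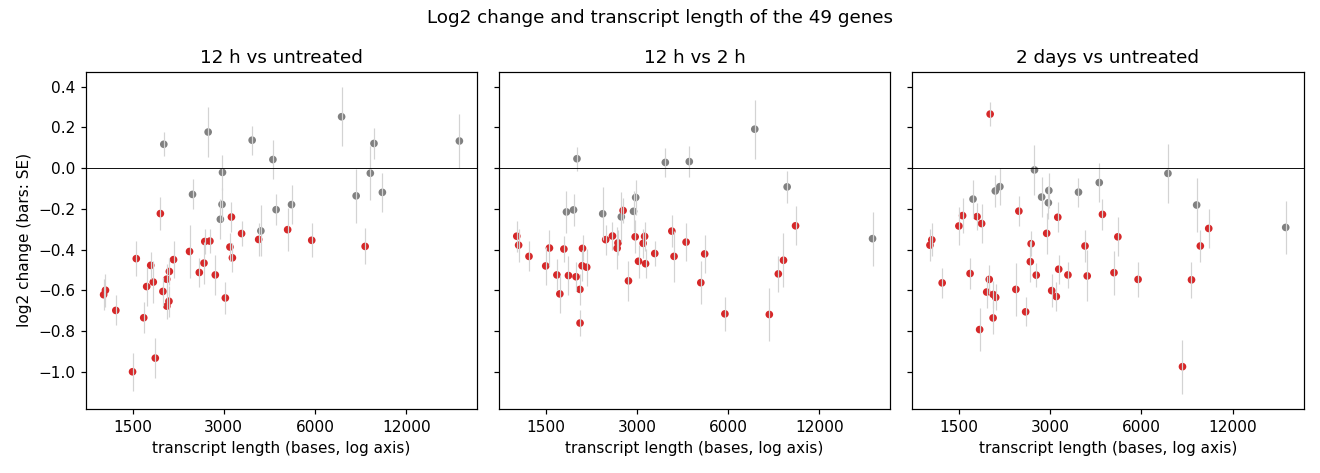
Log2 change (vertical axis, bars are the SE) against transcript length in bases (log axis) for the 49 genes in 3 comparisons, with called genes in red. Long transcripts lie higher and short ones lower at 12 h against untreated cells (rho 0.71), a slope that is weaker at 12 h against 2 h (rho 0.14) and at 2 days (rho 0.06).

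The 2 most abundant members, nucleophosmin and nucleolin, are RNA-binding chaperones of the nucleolus. Per kilobase of transcript Npm1 had the highest level of the 49 genes in untreated cells, 33120.0 normalized counts per kilobase, and Urb1 the lowest, 167. Npm1 had 55236 and 52933 untreated, 47432 and 46024 by 2 h, 46651 and 48074 by 4 h, 43772 and 45309.5 by 6 h and 32341 and 32657 by 12 h. It then had 45538 and 37556 after 1 day, 38763 and 36825 after 2 days and 53378 and 50539 following withdrawal. Both 12 h libraries were the lowest of the series, both 2 day libraries lay between them and untreated cells, and the withdrawal libraries were close to the untreated ones. Npm1 fell by 12 h against 2 h (log2 change -0.52 ± 0.08, limma adjusted p = 0.000278) and at 2 days against untreated cells (-0.52 ± 0.08, limma adjusted p = 0.000104), and it rose on withdrawal against 2 days (0.46 ± 0.08, limma adjusted p = 0.000326). Of 3 pseudogenes with at least 90% identity to the Npm1 transcript, 1 was in the table, and reads could have been split among such copies.

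Against untreated cells Ncl moved in both directions. Its counts were 35061 and 48292 untreated, 60922 and 62335 by 2 h, 58359 and 57862 by 4 h, 53036 and 56024 by 6 h and 37673 and 37238 by 12 h. Later they were 29872 and 24414 after 1 day, 19998 and 21948 after 2 days and 42934 and 35069.9 following withdrawal. The 2 h, 4 h and 6 h libraries were all above both untreated libraries, the 12 h pair lay between the untreated values, and the 2 day pair was below every other library. At 2 days Ncl fell by 49.1% against untreated cells (log2 change -0.97 ± 0.13, limma adjusted p = 4.96e-05), and withdrawal raised it again (0.89 ± 0.13, limma adjusted p = 0.000125). From 2 h to 12 h it fell (-0.72 ± 0.13, limma adjusted p = 0.00149). The early rise against untreated cells was 0.58 ± 0.13, limma adjusted p = 0.0105 at 2 h, and it was not called without 2 h replicate 1 (0.60, limma adjusted p = 0.051), 2 h replicate 2 (0.57, limma adjusted p = 0.0822) or untreated replicate 1 (0.35, limma adjusted p = 0.0735). The calls at 4 h and 6 h against untreated cells also ended with at least 1 library left out. The 2 untreated Ncl values themselves lay further apart than those of any other group. The Ncl transcript is long (8202 bases), and long transcripts lay higher in the 2 to 12 h libraries against untreated cells. The part of length or library set in the early rise was not tested.

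The PeBoW complex (Pes1, Bop1, Wdr12) acts on the early nuclear particle and is needed to process ITS2. All 3 genes fell at 2 days (background 23.8% lower). From 2 h to 12 h 2 of 3, Bop1 and Wdr12, fell (background 13.7% lower). Neither of these 2 calls held with every library left out in turn. Bop1 had 3449.5 and 3144 untreated, 3071 and 2756 by 2 h, 2922 and 2996 by 4 h, 2663 and 2688 by 6 h and 2250.4 and 2369.6 by 12 h. It went on to 2237 and 2274 after 1 day, 2054 and 1986 after 2 days and 2922 and 2962 following withdrawal. Every 12 h, 1 day and 2 day library was below every untreated and withdrawal library. Bop1 fell by 38.7% at 2 days (log2 change -0.71 ± 0.07, limma adjusted p = 3.6e-06), and the change after withdrawal against 2 days was 0.54 ± 0.07, limma adjusted p = 4.21e-05. The fall from 2 h to 12 h (-0.33 ± 0.07, limma adjusted p = 0.0041) was not called without 2 h replicate 1 (-0.26, limma adjusted p = 0.0639).

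Pes1 had 4065 and 4051 untreated, 4166 and 3746 by 2 h, 3957 and 3929 by 4 h, 3958 and 3994 by 6 h and 3549.9 and 3276 by 12 h. Late values were 3326 and 3480.0 after 1 day, 3076 and 3438 after 2 days and 4662 and 3661 following withdrawal. The 2 day pair did not overlap with the untreated pair, and the withdrawal replicates lay far apart. The 2 day change was -0.32 ± 0.10, limma adjusted p = 0.0177, a call that ended without 2 day replicate 1 (-0.24, limma adjusted p = 0.146), untreated replicate 1 (-0.32, limma adjusted p = 0.0525) or untreated replicate 2 (-0.32, limma adjusted p = 0.0548). Wdr12 had 1816 and 2032 untreated, 2073 and 2237 by 2 h, 1995 and 1980.5 by 4 h, 1901 and 2017 by 6 h and 1857 and 1686 by 12 h. Its late counts were 2001 and 1685 after 1 day, 1486 and 1648 after 2 days and 1885 and 1968 following withdrawal. The Wdr12 values at 2 h were above both untreated libraries and those at 2 days below them. Its 2 day change, -0.30 ± 0.10, limma adjusted p = 0.022, was lost without 2 day replicate 1 (-0.22, limma adjusted p = 0.166) or untreated replicate 2 (-0.22, limma adjusted p = 0.147). Its fall from 2 h to 12 h (-0.28 ± 0.10, limma adjusted p = 0.0449) was lost with any 1 of the 4 compared libraries left out, namely 12 h replicate 1 (-0.35, limma adjusted p = 0.0663), 12 h replicate 2 (-0.21, limma adjusted p = 0.268), 2 h replicate 1 (-0.34, limma adjusted p = 0.0834) or 2 h replicate 2 (-0.23, limma adjusted p = 0.239).

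Factors of the early nucleolar particle make up the largest role, with 20 genes. Of these 11 fell and 1 rose at 2 days (median -0.23, background 23.8% lower and 21% higher). From 2 h to 12 h 14 fell (median -0.41, background 13.7% lower). Nop16, a component of that particle, had the lowest value at 2 days in this role. Nop16 had 1375 and 1232 untreated, 1028 and 1023 by 2 h, 997 and 1136 by 4 h, 984 and 973 by 6 h and 834 and 934 by 12 h. Afterwards it had 859 and 1001 after 1 day, 771 and 732 after 2 days and 1294 and 1157 following withdrawal. Every auxin library was below every untreated and withdrawal library, and the 2 day pair was the lowest of the series. Nop16 fell by 42.3% at 2 days (log2 change -0.79 ± 0.10, limma adjusted p = 3.85e-05), and withdrawal against 2 days gave 0.70 ± 0.10, limma adjusted p = 0.000126.

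Rsl1d1, a nucleolar protein with a ribosomal L1 domain, had 6498 and 5649.6 untreated, 6247 and 6297 by 2 h, 5609 and 5651 by 4 h, 5056 and 4888 by 6 h and 4447 and 3876 by 12 h. It then had 4215 and 4098 after 1 day, 3732 and 3551 after 2 days and 5788 and 5658 following withdrawal. Values declined from 4 h onward and were lowest at 2 days, and the withdrawal libraries overlapped the untreated ones. Rsl1d1 changed by -0.60 ± 0.08, limma adjusted p = 0.000119 from 2 h to 12 h and by -0.74 ± 0.08, limma adjusted p = 5.27e-06 at 2 days. Urb2, a scaffold of the early particle, had 2411 and 2195 untreated, 2849 and 3065 by 2 h, 2592 and 2612 by 4 h, 2234 and 2211 by 6 h and 1777 and 1823 by 12 h. Its later values were 1669.6 and 1395 after 1 day, 1591 and 1559 after 2 days and 2271 and 2339 following withdrawal. The 2 h libraries were the highest and the 1 and 2 day libraries the lowest. Urb2 fell by 12 h against 2 h (-0.72 ± 0.08, limma adjusted p = 5.39e-05) and at 2 days against untreated cells (-0.55 ± 0.08, limma adjusted p = 0.000147).

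Brix1 and Mak16 did not fall at 2 days. Brix1, which belongs to a family of rRNA-binding factors that also holds Rpf1, Rpf2 and Ppan, had 3088 and 2879 untreated, 4043 and 3919 by 2 h, 3764 and 3045 by 4 h, 3834 and 3363 by 6 h and 3844 and 2958 by 12 h. It ended at 3096 and 3480.2 after 1 day, 3058 and 2873 after 2 days and 3001 and 2894 following withdrawal. Its 2 day and withdrawal pairs both overlapped the untreated pair, and the 2 day change was -0.01 ± 0.12, limma adjusted p = 0.963. Mak16, which pairs with Rpf1 in the yeast particle, had 2395 and 2385 untreated, 2512 and 2509 by 2 h, 2909 and 2819 by 4 h, 2716 and 2736 by 6 h and 2621 and 2563 by 12 h. It had 3096 and 3017 after 1 day, 2969 and 2779.6 after 2 days and 2229 and 2219 following withdrawal. The 1 and 2 day libraries were above every untreated and withdrawal library. Mak16 rose at 2 days (0.27 ± 0.06, limma adjusted p = 0.00267) and fell on withdrawal against 2 days (-0.37 ± 0.06, limma adjusted p = 0.000264). Exons of Mak16 overlap those of Tti2 on the opposite strand by 882 bases, and whether counting used strand is not given in the sources used here, so reads of the 2 genes may not be told apart.

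The other early-particle genes that fell at 2 days were Nifk, Rrp1, Rrp1b, Rrp15, Noc3l, Rbm28, Pak1ip1 and Sdad1, with log2 changes from -0.63 (Rrp1) to -0.23 (Rbm28). The Rbm28 call ended without 2 day replicate 1 (-0.17, limma adjusted p = 0.172) or untreated replicate 1 (-0.16, limma adjusted p = 0.145). The Pak1ip1 call ended without 2 day replicate 1 (-0.21, limma adjusted p = 0.0718), and the Sdad1 call without 2 day replicate 1 (-0.33, limma adjusted p = 0.0556) or untreated replicate 2 (-0.29, limma adjusted p = 0.0624). Ppan, Rpf1 and Noc2l, which bind the particle early, were lower at 12 h than at 2 h (-0.62, -0.48 and -0.55) while their 2 day values were -0.15, -0.11 and -0.14 with no call. Mybbp1a, a nucleolar protein that also binds transcription factors, was -0.07 at 2 days with no call.

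Nop2 and Ftsj3 are methyltransferases that modify 28S rRNA, and Nip7 is a partner protein of the same stage. All 3 fell at 2 days (background 23.8% lower) and all 3 fell from 2 h to 12 h (background 13.7% lower). Nop2 had 4768 and 4452 untreated, 4614 and 4644 by 2 h, 4479.8 and 4561 by 4 h, 3732 and 3948 by 6 h and 3569.7 and 3609.9 by 12 h. It then had 3998 and 3777 after 1 day, 3604 and 3521 after 2 days and 4477 and 4409 following withdrawal. Its 2 and 4 h libraries were level with untreated cells, and every library from 6 h to 2 days was below them. The Nop2 changes were -0.37 ± 0.06, limma adjusted p = 0.000702 from 2 h to 12 h and -0.37 ± 0.06, limma adjusted p = 0.000239 at 2 days. Ftsj3 had 5650.2 and 5054 untreated, 5415 and 5144 by 2 h, 5074 and 5231 by 4 h, 4799 and 4943 by 6 h and 4008 and 4165 by 12 h. It continued at 4148 and 3898 after 1 day, 3323 and 3589 after 2 days and 5668 and 5464 following withdrawal. The 2 day pair was the lowest of the series and the withdrawal pair lay at the top of the range. Ftsj3 changed by -0.63 ± 0.07, limma adjusted p = 8.8e-06 at 2 days and by 0.69 ± 0.07, limma adjusted p = 4.89e-06 on withdrawal against 2 days. Nip7 had 2323 and 2154 untreated, 1996 and 1953 by 2 h, 1864 and 1805 by 4 h, 1622 and 1674 by 6 h and 1486 and 1392 by 12 h. Its remaining values were 1667 and 1718 after 1 day, 1585 and 1372 after 2 days and 2333 and 2215 following withdrawal. All auxin libraries were below all untreated and withdrawal libraries, and the 2 day change was -0.60 ± 0.08, limma adjusted p = 4.25e-05.

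Rpf2 and Rrs1 together bring the 5S RNP, a unit of 5S rRNA and its ribosomal proteins, into the particle. At 2 days Rpf2 fell and Rrs1 was not called. From 2 h to 12 h Rrs1 was the 1 of the 2 that fell (background 13.7% lower). Rpf2 had 1221 and 1235 untreated, 1166 and 1262 by 2 h, 1088 and 1140.0 by 4 h, 1054 and 1006 by 6 h and 1078 and 1027 by 12 h. It then had 995 and 1015 after 1 day, 847 and 766 after 2 days and 1062 and 1065 following withdrawal. The 2 day libraries were below all others. Rpf2 changed by -0.61 ± 0.08, limma adjusted p = 3.63e-05 at 2 days. Rrs1 had 2450.0 and 2266 untreated, 2519.5 and 2321 by 2 h, 2169.9 and 2321 by 4 h, 1854 and 1945 by 6 h and 1639.8 and 1817 by 12 h. It then moved to 2235 and 1879 after 1 day, 2249 and 2175 after 2 days and 2587 and 2452 following withdrawal. The 2 day values of Rrs1 were just under the untreated ones (-0.09 ± 0.09, limma adjusted p = 0.437), whereas its 12 h values were the lowest of the series (-0.49 ± 0.09, limma adjusted p = 0.00171 against 2 h). The difference between the 2 genes was not tested.

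The nucleolar GTPases Gnl2, Gnl3 and Gtpbp4 bind the maturing particle and help to release or place other factors. All 3 fell at 2 days (background 23.8% lower) and all 3 fell from 2 h to 12 h (background 13.7% lower). Gnl3, or nucleostemin, had 5008 and 4568 untreated, 4957 and 5175 by 2 h, 4734 and 4667 by 4 h, 3937 and 3929.7 by 6 h and 3028 and 2955 by 12 h. It then had 3353 and 3177 after 1 day, 3231 and 2996 after 2 days and 4901 and 4796 following withdrawal. Every library from 6 h to 2 days was below every untreated, 2 h, 4 h and withdrawal library. Gnl3 showed the largest fall of the 49 genes from 2 h to 12 h (-0.76 ± 0.07, limma adjusted p = 4.7e-06). At 2 days Gnl3 fell by 34.9% (log2 change -0.62 ± 0.07, limma adjusted p = 5.49e-06).

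Gtpbp4 had 3588 and 3785 untreated, 3987 and 4103 by 2 h, 3459 and 3356 by 4 h, 3235 and 2861 by 6 h and 3053 and 2611 by 12 h. Its late counts were 2907 and 2604 after 1 day, 2504 and 2537 after 2 days and 3499.5 and 3252 following withdrawal. The 2 h pair was the highest, the 2 day pair the lowest, and the withdrawal pair lay just below the untreated one. Gtpbp4 fell from 2 h to 12 h (-0.52 ± 0.09, limma adjusted p = 0.000829) and at 2 days (-0.55 ± 0.09, limma adjusted p = 0.000202). Gnl2 had 1938 and 1775 untreated, 2149 and 2179 by 2 h, 1973 and 1805 by 4 h, 1718 and 1776 by 6 h and 1749 and 1645 by 12 h. It then had 1645 and 1668 after 1 day, 1658 and 1548 after 2 days and 1988 and 2011 following withdrawal. Its 2 h libraries were the highest, and both 2 day libraries were below both untreated ones. The 2 day change of Gnl2 was -0.21 ± 0.07, limma adjusted p = 0.0328, and the call ended without 2 day replicate 2 (-0.16, limma adjusted p = 0.203) or untreated replicate 1 (-0.15, limma adjusted p = 0.172).

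Mdn1 and Nvl are AAA ATPases, large machines that pull factors off the particle, Nle1 and Wdr74 are partners that they act on, and Nsa2 is a factor placed at the same stage. At 2 days 4 of these 5 genes fell (background 23.8% lower). From 2 h to 12 h 3 of the 5 fell (background 13.7% lower), and the calls of Wdr74 and Nsa2 among them ended with at least 1 library left out. Nsa2 had 3390.1 and 3364 untreated, 3099 and 2987 by 2 h, 3119 and 3333 by 4 h, 3204 and 3219 by 6 h and 2623 and 2645 by 12 h. It then had 2814 and 2801 after 1 day, 2371 and 2321 after 2 days and 3338 and 3186 following withdrawal. Values through 6 h were just under the untreated pair, and the 2 day pair was the lowest. Nsa2 changed by -0.53 ± 0.06, limma adjusted p = 1.17e-05 at 2 days. Exons of Nsa2 overlap opposite-strand exons by 1591 bases, and a gene in the table has a similar sequence. Nvl had 3021 and 3355 untreated, 3613 and 3769.6 by 2 h, 3772 and 3382 by 4 h, 3526 and 3403 by 6 h and 3529.7 and 3398 by 12 h. It then had 2667 and 2562 after 1 day, 2318 and 2575 after 2 days and 2829 and 2925 following withdrawal. Its early libraries were above the untreated ones and its 1 and 2 day libraries below them, with a 2 day change of -0.38 ± 0.08, limma adjusted p = 0.00134.

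Nle1, the particle-bound partner of Mdn1, had 1324 and 1127 untreated, 919.5 and 926 by 2 h, 881 and 967 by 4 h, 834 and 835 by 6 h and 611 and 671 by 12 h. It then had 1189.7 and 1066 after 1 day, 1012 and 1011 after 2 days and 952 and 1028 following withdrawal. The 12 h pair was far below all others, the 1 day pair overlapped untreated cells, and the withdrawal pair stayed under the untreated one. Nle1 was -0.93 ± 0.10, limma adjusted p = 1.05e-05 at 12 h against untreated cells and -0.53 ± 0.10, limma adjusted p = 0.00159 against 2 h. Against untreated cells Nle1 was already at -0.405 by 2 h. At 2 days it was -0.27 ± 0.10, limma adjusted p = 0.0356, a call that ended without 2 day replicate 1 (-0.27, limma adjusted p = 0.113), 2 day replicate 2 (-0.27, limma adjusted p = 0.117) or untreated replicate 1 (-0.16, limma adjusted p = 0.252). Mdn1, the longest transcript of the set, had 6866 and 9327 untreated, 10523 and 11830.5 by 2 h, 9681 and 9689.7 by 4 h, 8999 and 8695 by 6 h and 9037 and 8524 by 12 h. It then had 7893 and 6262 after 1 day, 6039 and 7082 after 2 days and 7657 and 7201 following withdrawal. Its untreated replicates lay so far apart that the 2 day pair overlapped them, and the 2 day change was -0.29 ± 0.13, limma adjusted p = 0.0886.

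The rixosome (Pelp1, Tex10, Senp3, Wdr18 with Las1l and Nol9) cuts and trims ITS2 and releases earlier factors, with Las1l as the nuclease, Nol9 as the kinase and Senp3 as a SUMO protease. At 2 days 5 of 6 genes fell (background 23.8% lower), with a median of -0.48. From 2 h to 12 h 4 of the 6 fell (background 13.7% lower), and the calls of Las1l and Wdr18 among them ended with at least 1 library left out. Pelp1 had 4556 and 4315 untreated, 4725 and 4768 by 2 h, 4559 and 4652 by 4 h, 4119 and 4255 by 6 h and 3386 and 3722 by 12 h. It then had 3301 and 3297 after 1 day, 3036 and 3129 after 2 days and 4263 and 4207 following withdrawal. All 12 h, 1 day and 2 day libraries were below all the rest. Pelp1 changed by -0.42 ± 0.06, limma adjusted p = 0.000311 from 2 h to 12 h, by -0.52 ± 0.06, limma adjusted p = 1.56e-05 at 2 days and by 0.46 ± 0.06, limma adjusted p = 5.84e-05 on withdrawal against 2 days. Tex10 had 3354 and 3447 untreated, 3400.1 and 3537 by 2 h, 2963 and 2893 by 4 h, 2836 and 2714 by 6 h and 2593 and 2422 by 12 h. It then had 2699.9 and 2387 after 1 day, 2439.8 and 2382 after 2 days and 3286 and 3179 following withdrawal. Every library from 4 h to 2 days was below every untreated, 2 h and withdrawal library, and the 2 day change was -0.50 ± 0.07, limma adjusted p = 7.84e-05.

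Senp3 had 5592 and 7537 untreated, 5831 and 5591 by 2 h, 5384 and 5068 by 4 h, 6260.1 and 4837 by 6 h and 5230.1 and 4570.2 by 12 h. It then had 4231 and 4561 after 1 day, 4212 and 4387 after 2 days and 6232 and 6177 following withdrawal. Untreated replicate 2 was the highest of the series, and the 2 day pair was below both untreated values. The 2 day change, -0.60 ± 0.13, limma adjusted p = 0.00216, was weaker by over 1.5 times without untreated replicate 2 (-0.38, call kept, limma adjusted p = 0.0293). Wdr18 had 2532 and 2264 untreated, 2452 and 2206 by 2 h, 2376 and 2387 by 4 h, 2446 and 2356 by 6 h and 1814 and 1944 by 12 h. It then had 1876 and 1709.8 after 1 day, 1854 and 1819.5 after 2 days and 2306 and 2263 following withdrawal. Counts stayed level to 6 h and were lower from 12 h to 2 days (-0.38 ± 0.08, limma adjusted p = 0.00151 at 2 days). Nol9 had 2659 and 2924 untreated, 3001 and 3013 by 2 h, 3044 and 2937 by 4 h, 3242 and 3079.8 by 6 h and 2981 and 3155 by 12 h. It then had 2621 and 2461 after 1 day, 2563 and 2575 after 2 days and 2418 and 2615 following withdrawal. The 2 day and withdrawal pairs were slightly below the untreated pair and the early pairs above it, with -0.12 ± 0.07, limma adjusted p = 0.193 at 2 days.

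Of the export and cytoplasmic factors, Nmd3 is the adaptor that carries the particle through the nuclear pore, Mrto4 and Rsl24d1 hold sites of later ribosomal proteins, Lsg1 is the GTPase that releases Nmd3, and Eif6 keeps the subunits apart until it is removed. At 2 days 4 of 5 fell with a median of -0.24 (background 23.8% lower), and all 5 fell from 2 h to 12 h (background 13.7% lower). Besides that of Nmd3, 2 of these calls from 2 h to 12 h ended with a library left out. They were Lsg1 (-0.25 without 12 h replicate 2, -0.30 without 2 h replicate 1) and Rsl24d1 (-0.34 without 12 h replicate 2). Eif6 had 3370.2 and 3195 untreated, 2415 and 2169.9 by 2 h, 2218 and 2358 by 4 h, 1989.9 and 2162 by 6 h and 1535 and 1755 by 12 h. It then had 2658 and 2924 after 1 day, 2767 and 2624 after 2 days and 3485 and 3048 following withdrawal. Libraries of 2 to 12 h were all below the 1 and 2 day libraries, which were in turn below the untreated ones. Eif6 was -1.0 ± 0.09, limma adjusted p = 4.45e-06 at 12 h against untreated cells, the largest fall of the 49 genes there, and -0.48 ± 0.09, limma adjusted p = 0.00226 against 2 h. Against untreated cells Eif6 was already at -0.52 by 2 h and -0.52 by 4 h. The part of length or library set in these values was not tested. Its 2 day change, -0.28 ± 0.09, limma adjusted p = 0.024, was lost without 2 day replicate 1 (-0.32, limma adjusted p = 0.0527), 2 day replicate 2 (-0.25, limma adjusted p = 0.133) or untreated replicate 1 (-0.25, limma adjusted p = 0.0999).

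Mrto4 had 2160.2 and 1856 untreated, 1707 and 1729 by 2 h, 1683 and 1731 by 4 h, 1546 and 1562 by 6 h and 1292 and 1353 by 12 h. It then had 1735 and 1826 after 1 day, 1520.0 and 1619 after 2 days and 1900.0 and 1763 following withdrawal. All auxin libraries were below both untreated ones, with the 12 h pair lowest and a 2 day change of -0.35 ± 0.08, limma adjusted p = 0.00309. Rsl24d1 had 3275 and 2816 untreated, 2994 and 2866 by 2 h, 2839 and 2563 by 4 h, 2578 and 2409 by 6 h and 2320.3 and 2147 by 12 h. It then had 2819.8 and 2609 after 1 day, 2618 and 2551 after 2 days and 3246 and 3008 following withdrawal. The 12 h pair was the lowest, and the 2 day pair was below both untreated libraries. Its 2 day change of -0.23 ± 0.09, limma adjusted p = 0.0424 was lost without 2 day replicate 1 (-0.25, limma adjusted p = 0.101), 2 day replicate 2 (-0.21, limma adjusted p = 0.161) or untreated replicate 1 (-0.12, limma adjusted p = 0.3). Nmd3 had 2532 and 2388 untreated, 3181 and 3439 by 2 h, 3106 and 2462 by 4 h, 2447 and 2468 by 6 h and 2747 and 2127 by 12 h. It then had 2467 and 2006 after 1 day, 2134 and 2206 after 2 days and 2549 and 2252 following withdrawal. The 2 h pair of Nmd3 was well above the untreated pair and the 2 day pair below it, and its 2 day change was -0.18 ± 0.13, limma adjusted p = 0.288. Nmd3 fell from 2 h to 12 h (-0.45 ± 0.13, limma adjusted p = 0.0242), but not without 12 h replicate 2 (-0.27, limma adjusted p = 0.256), 2 h replicate 1 (-0.51, limma adjusted p = 0.0644) or 2 h replicate 2 (-0.40, limma adjusted p = 0.142). Lsg1 was -0.24 ± 0.07, limma adjusted p = 0.016 at 2 days, a call lost without 2 day replicate 1 (-0.22, limma adjusted p = 0.0931) or untreated replicate 1 (-0.18, limma adjusted p = 0.0946).

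**Figure D4:**
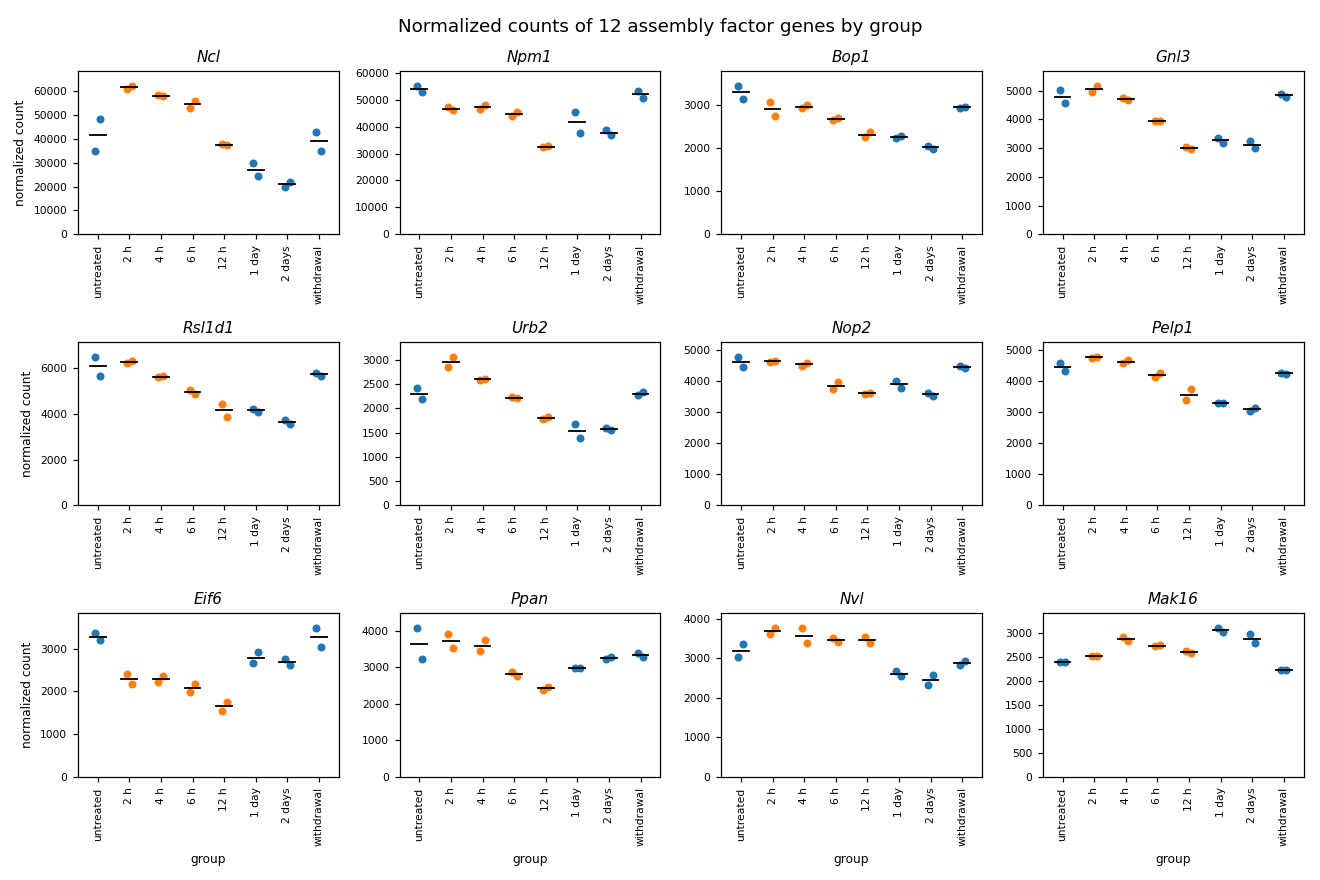
Normalized counts of 12 of the 49 genes (vertical axes from 0) in the 2 libraries of each of the 8 groups (points), with the group mean as a line and the 2 to 12 h libraries in orange. Ncl is above untreated levels from 2 to 6 h and lowest at 2 days, Eif6 and Ppan are lowest at 12 h, and Mak16 is highest at 1 and 2 days.

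The fall from 2 h to 12 h and the fall at 2 days against untreated cells rest on separate libraries, so the genes can be compared between them. Across the 49 genes the log2 changes had a Pearson correlation of 0.44 and a Spearman correlation of 0.28, as a description without a test. The difference between the changes was tested in the same limma fit, and 6 of 49 genes passed (12.2%, beside 15.6% of all genes). For Nop16, Bop1, Rpf2 and Nsa2 the fall at 2 days against untreated cells was deeper than the fall from 2 h to 12 h. For Ppan and Rpf1 the fall from 2 h to 12 h was the deeper one. The 2 changes start from different groups, so a change in the first 2 h enters only the 2 day value. Nop16, for example, was already at -0.34 by 2 h against untreated cells. The share of the 49 genes was near that of all genes, and none of the 6 calls held with each library left out in turn. The plot of both changes shows most genes below 0 on both axes.

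**Figure D5:**
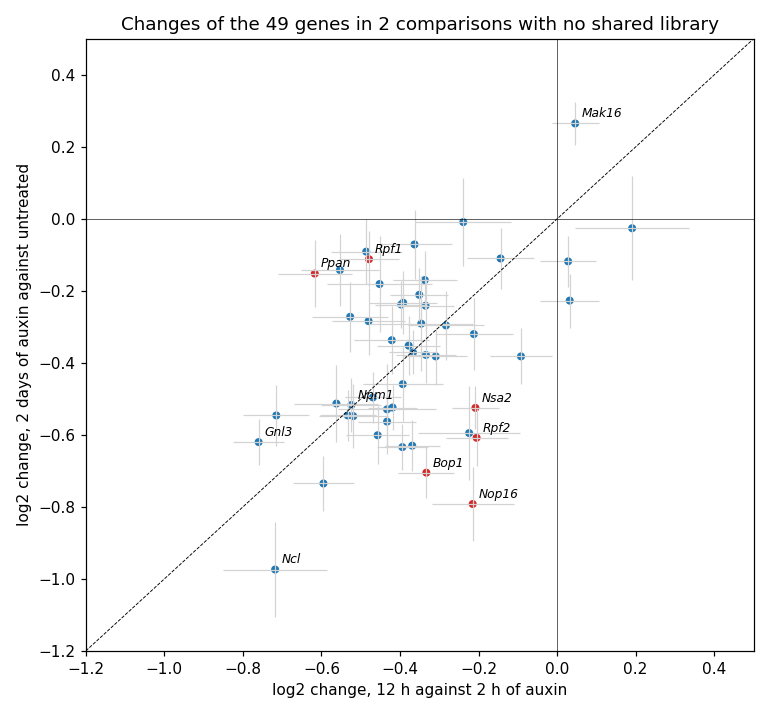
Log2 change at 2 days against untreated cells (vertical axis) against the log2 change at 12 h against 2 h of auxin (horizontal axis) for the 49 genes, with SE bars and the line of equal change dashed. Mak16 lies above 0 on both axes, Ncl lowest at 2 days (-0.97), and the 6 genes whose changes differed by test are red.

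Other ribosome assembly genes that are not among the 49 were followed from 2 lists. Of 26 further pre-60S factors 22 were in the table. At 2 days 11 fell and 1 rose (background 23.8% lower and 21% higher), with a median of -0.26. The 4 with the smallest p were Nop9 (-0.77), Bccip (-0.53), a chaperone of ribosomal protein uL14, Pa2g4 (-0.49), which docks at the exit tunnel, and Znhit3 (-0.64), a zinc-finger partner of snoRNP assembly. Nop9, an RNA-binding protein, is known for maturation of the small-subunit rRNA although the list holds it, and without it 10 of 21 genes fell and 1 rose, with a median of -0.25. Spata5, an AAA ATPase that removes Rsl24d1, was the 1 that rose (0.43 ± 0.13, limma adjusted p = 0.013), and it is named here because of that value. Of 8 DEAD-box helicases of the large subunit 5 fell and 1 rose at 2 days, against the same background, with a median of -0.23. Ddx18 fell most (-0.60), Ddx24 and Ddx51 also fell (-0.48 and -0.50), and Ddx55 rose (0.47). From 2 h to 12 h 17 of the 22 further factors and 3 of the 8 helicases fell (background 13.7% lower).

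Myc and the p53 pathway were read in the same libraries as context. Myc had 438 and 435 untreated, 322 and 299 by 2 h, 270.1 and 297 by 4 h, 291 and 261 by 6 h and 138 and 113 by 12 h. It then had 76.9 and 82.1 after 1 day, 46.6 and 67.1 after 2 days and 386 and 354 following withdrawal. The Myc counts were lower at every later auxin time than in untreated cells, lowest at 2 days (-2.94 ± 0.17, limma adjusted p = 4.2e-08), and back near the untreated level after withdrawal. Mycn, the related gene that is abundant in stem cells, was 0.28 ± 0.21, limma adjusted p = 0.29 at 2 days. Mdm2 and Cdkn1a, both targets of p53, rose at 2 days by 1.64 and 1.84 on the log2 scale. In textbook accounts an unassembled 5S RNP binds MDM2 and stabilises p53. The part of Myc or of p53 in the fall of the assembly factor genes was not tested.

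Because most of the genes fell together, their promoters were searched for fixed letter patterns. Promoter sequence from RefSeq (GRCm38.p6), covering 250 bases before to 50 after the listed start, matched 41 of the 49 genes by symbol, with none listed for Bop1, Npm1, Rpf1, Mak16, Pak1ip1, Rrs1, Gnl2 and Eif6. The patterns, read on both strands, were CACGTG (the E-box bound by MYC and related factors), CCGGAAG (bound by ETS factors), the palindromic NRF1 motif of 10 bases and TATAAA (the TATA box). CACGTG and the NRF1 motif read the same on both strands. CACGTG was present for 10 of the 41 genes (24.4%), beside 12.1% of 9825 tested genes with a promoter and 7.15% of all 32851 promoters. CCGGAAG was present for 19 genes (46.3%), beside 19.8% and 8.86%. TATAAA was present for 4 genes (9.76%), beside 8.28% and 13.6%, and the NRF1 motif for 0, beside 2.38% and 0.971%. Of the 31 genes with a promoter that fell at 2 days 7 had CACGTG and 13 had CCGGAAG. Neither pattern was more frequent among these 31 genes than among all 41. A link of the patterns to the fall was not tested. These matches describe the letters only.

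The 250 bases before the start are shown for 4 genes that fell at 2 days, chosen to show both patterns, each of them alone and neither, with capitals marking CACGTG or CCGGAAG. Positions count back from the listed start. The Ncl stretch is chr1:86359456-86359705 on the minus strand and holds neither. The Nop2 stretch, chr6:125131633-125131882 on the plus strand, holds CACGTG at -60 and CCGGAAG at -38. The Pelp1 stretch, chr11:70410032-70410281 on the minus strand, holds CACGTG at -229, and the Rsl1d1 stretch, chr16:11203293-11203542 on the minus strand, holds CCGGAAG at -227.
Ncl: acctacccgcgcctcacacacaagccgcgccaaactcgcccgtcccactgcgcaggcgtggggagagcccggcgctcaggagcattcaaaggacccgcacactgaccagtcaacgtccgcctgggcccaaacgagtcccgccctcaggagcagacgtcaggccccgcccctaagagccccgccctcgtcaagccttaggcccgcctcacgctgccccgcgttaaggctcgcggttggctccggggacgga
Nop2: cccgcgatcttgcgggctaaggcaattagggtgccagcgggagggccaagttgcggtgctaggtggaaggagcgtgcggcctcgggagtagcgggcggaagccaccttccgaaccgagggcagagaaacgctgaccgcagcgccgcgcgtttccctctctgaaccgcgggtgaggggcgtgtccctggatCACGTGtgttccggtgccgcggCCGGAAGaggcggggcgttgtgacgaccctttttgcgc
Pelp1: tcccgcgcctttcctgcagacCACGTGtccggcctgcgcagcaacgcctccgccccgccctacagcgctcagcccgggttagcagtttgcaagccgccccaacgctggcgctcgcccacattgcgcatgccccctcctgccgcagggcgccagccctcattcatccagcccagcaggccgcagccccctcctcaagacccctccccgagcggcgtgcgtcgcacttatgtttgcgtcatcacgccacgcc
Rsl1d1: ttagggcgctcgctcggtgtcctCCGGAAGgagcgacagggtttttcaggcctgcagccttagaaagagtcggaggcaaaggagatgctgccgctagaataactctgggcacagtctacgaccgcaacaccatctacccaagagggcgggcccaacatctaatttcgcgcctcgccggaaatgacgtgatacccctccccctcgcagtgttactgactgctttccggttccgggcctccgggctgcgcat

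For 7 of the genes described, the GENCODE M21 annotation (GRCm38) places Ncl at chr1:86344719-86359400 (minus strand), Npm1 at chr11:33152287-33163206 (minus strand), Bop1 at chr15:76452989-76477277 (minus strand), Nop16 at chr13:54584185-54590090 (minus strand), Gnl3 at chr14:31012433-31019152 (minus strand), Eif6 at chr2:155819832-155826925 (minus strand) and Mak16 at chr8:31159463-31168764 (minus strand). Some members carry other RNAs in their loci. In the same annotation 3 of the 49 genes host 8 small nucleolar RNA genes in all. Ncl hosts 3, among them Snora75 and Snord82, Gnl3 hosts 3, among them Snord19 and Snord69, and Ppan hosts 2. Such RNAs guide rRNA modification, and libraries of purified mRNA are not made to measure them. Of the host mRNAs, Ncl and Gnl3 fell at 2 days (-0.97 and -0.62) and Ppan was -0.15 with no call. Exons of 18 members overlap exons on the opposite strand and 6 members have a similar pseudogene, so part of their reads may be shared.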

How the data were processed

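Messenger RNA of 16 libraries was sequenced, and groups were taken from the labels. The deposited table holds a signal per gene and library, normalized counts, and its values show that the authors scaled each library's gene counts by a common factor. Per the submitters' processing notes the tools were Trim Galore, STAR, RSEM and DESeq2 with build mm10. The sources used here do not give versions, roles, strand setting or annotation. Depth was estimated from the step between low values (72.4% to 99% of the values used were whole multiples of it within 0.1).

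Changes were differences of log2(normalized count + 1) in 1 limma fit (3.58.1, R 4.3.3, trend, 8 residual degrees of freedom) over all 16 libraries and the 13355 genes with a mean of at least 10, and ± is the SE. P-values were adjusted over all genes by Benjamini-Hochberg, with a threshold of 0.05, and the fit was tested on simulated data. Whether replicate libraries are separate cultures is not stated, so p-values measure the spread between libraries, which may be technical. The members and lists were chosen with earlier results of these data known. All members could be named. Values in every library are given for roles of at most 3 genes and, in larger roles, for the 2 genes with the smallest F-test p and the 2 lowest and highest at 2 days. Other pathway genes were named up to 4 per list by p at 2 days. Positions, lengths and overlaps came from GENCODE M21 (GRCm38). Alternatives were other pseudocounts, filters, scalings, fits and left-out libraries.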

Additional observations from a re-analysis of the deposited data

Results flagged for a closer look

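Of the 49 genes 6 had a change from 2 h to 12 h of auxin that differed by test from their change at 2 days against untreated cells (limma contrast of both changes, which share no library, adjusted over all genes). Of all genes 15.6% passed the same test, beside 12.2% of the 49.

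The difference (12 h change minus 2 day change) was 0.58 for Nop16, 0.37 for Bop1, 0.40 for Rpf2 and 0.32 for Nsa2. Their falls were deeper at 2 days against untreated cells than from 2 h to 12 h. It was -0.47 for Ppan and -0.37 for Rpf1, whose falls from 2 h to 12 h were the deeper ones. A change in the first 2 h enters only the 2 day change, so these differences do not compare levels at 12 h and 2 days. The call of each gene ended with at least 1 of the 8 libraries left out. The values then ran from 0.495 to 0.658 for Nop16, 0.294 to 0.450 for Bop1, 0.331 to 0.475 for Rpf2, 0.291 to 0.344 for Nsa2, -0.636 to -0.294 for Ppan and -0.427 to -0.307 for Rpf1.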

How the results depend on the processing

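The falls at 12 h against 2 h and at 2 days against untreated cells, and the rise on withdrawal against 2 days, kept their direction and stayed within 1.5 times of their counts under every alternative run, namely a pseudocount of 0.5 or 5, a minimum mean of 50 or none, trimmed mean of M values and upper quartile scaling, library weights, the replicate block, a length and GC trend removed, the 2 compared groups alone, and each library left out. Withdrawal as the reference in place of untreated cells, the 2 to 12 h libraries alone and the contrast of 2 changes were chosen after seeing the data. Leaving out a library left 25 to 30 calls for withdrawal against 2 days, and a group left with 1 library was assumed to vary like the others.

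Counts of called genes that moved were as follows, and the cause was not tested beyond the smaller number of libraries where groups or libraries were dropped. With library weights there were 6 calls for 2 h against untreated (from 12), 5 for 4 h against untreated (from 9), 16 for 1 day against untreated (from 27), 2 for 4 h against 2 h (from 0), 21 for 6 h against 2 h (from 11) and 0 for 2 days against 1 day (from 3). With the length and GC trend removed there were 7 for 2 h against untreated, 2 for withdrawal against untreated and 1 for 4 h against 2 h. With the 2 compared groups alone there were 1 for 2 h against untreated, 1 for 4 h against untreated, 7 for 6 h against untreated (from 25), 4 for 1 day against untreated, 2 for 4 h against 2 h, 18 for 6 h against 2 h and 0 for 2 days against 1 day. Upper quartile scaling gave 0 for 2 days against 1 day, and the 2 to 12 h libraries alone gave 4 for 4 h against 2 h and 20 for 6 h against 2 h, in fits that called 8.45% and 18.7% of all genes. Leaving out libraries gave 0 to 11 for 2 h against untreated, 2 to 9 for 4 h against untreated, 11 to 22 for 6 h against untreated, 0 to 3 for 6 h against 2 h and 0 to 4 for 2 days against 1 day.

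Medians of the log2 change that moved were, with upper quartile scaling, -0.19 for 6 h against untreated (from -0.24), -0.31 for 12 h against untreated (from -0.36), -0.31 for 2 days against untreated (from -0.37), 0.28 for withdrawal against 2 days (from 0.32) and -0.044 for 2 days against 1 day (from -0.086). With the trend removed they were -0.15 for 6 h against untreated and 0.27 for withdrawal against 2 days. With withdrawal as the reference they were 0.10 for 2 h, 0.025 for 4 h, -0.098 for 6 h, -0.31 for 12 h and -0.32 for 2 days. Leaving out libraries gave -0.019 to 0.057 for 2 h against untreated, -0.092 to 0.014 for 4 h against untreated, -0.24 to -0.14 for 6 h against untreated, -0.41 to -0.34 for 12 h against untreated, -0.31 to -0.25 for 1 day against untreated, -0.40 to -0.33 for 2 days against untreated, -0.094 to -0.021 for withdrawal against untreated and -0.13 to -0.076 for 2 days against 1 day. Among single genes 1 called value changed sign, Nsa2 for 2 days against 1 day, which was 0.017 with the trend removed.

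Same-numbered libraries of different groups did not deviate together (correlations of deviations from -0.061 to 0.066). Whether they share a culture or a batch is not given in the sources used here, and these correlations cannot decide it. With the replicate block there were 37 calls for 2 days against untreated, 36 for 12 h against 2 h and 34 for withdrawal against 2 days, and the block moved no count by over 1.5 times.

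With 2 libraries a group the test recovered 25.4% of simulated log2 changes of 0.5, 65.7% of changes of 1 and 95.5% of changes of 2 for 2 days against untreated over 13355 genes, with 6 of 130 calls on unchanged genes. The changed genes were drawn from all genes tested and were far fewer than the 44.8% of genes called in the real comparison. The recovered shares therefore do not measure recovery among the 49 genes. A missed call among the 49 genes still does not show that its level stayed the same.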

Other observations

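The share of all normalized counts that the 49 genes took together was above both untreated libraries at 2 h and 4 h, between them at 6 h and below them from 12 h to 2 days. It was 1.48% and 1.56% in the untreated libraries, 1.65% in both 2 h libraries, 1.6% and 1.58% by 4 h, 1.53% and 1.54% by 6 h, 1.34% and 1.32% by 12 h, 1.34% and 1.24% after 1 day, 1.22% and 1.23% by 2 days, and 1.51% and 1.42% following withdrawal. Npm1 and Ncl supplied a large part of it. Without them the share was 0.945% and 0.94% untreated, 0.996% and 1% by 2 h, 0.878% and 0.852% by 12 h, 0.827% and 0.834% by 2 days, and 0.927% and 0.901% following withdrawal. The total behind these shares also fell, from 16900740 and 16400517 normalized counts untreated to 14905225 and 14871878 at 2 days. Summed counts of the 49 genes were 249935 and 255401 untreated and 182073 and 182861 at 2 days.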
